A study of Mus musculus with 24 samples.

Results

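Chemokine receptors are G protein-coupled receptors on the surface of leukocytes that steer cells along gradients of chemokines. In CD4+ T cells, Ccr7, Cxcr4 and Cxcr5 serve traffic through lymphoid tissue and bone marrow, whereas Ccr2, Ccr4, Ccr6, Ccr8, Cxcr3 and Cxcr6 are known from effector, memory and regulatory cells that enter inflamed or barrier tissues. Engagement of the T cell receptor changes which of them a cell displays. The data described here are the mRNA levels of these 9 genes, found by mapping the Ensembl identifiers of a table of 54446 genes to their symbols. All 9 were present and passed the filter on low counts, as did 15325 genes in all. The lowest count of any of them in any library was 19, for Ccr2, and the highest was 40639, for Ccr7.

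CD4+ T cells were taken from spleens of 6 mice of strain C57BL6, 3 labelled WT (mice 1, 3 and 4) and 3 labelled AIM2-/- (mice 1, 2 and 4, written Aim2-/- from here on). The product of Aim2 senses DNA in the cytosol. Each mouse gave cells for an unstimulated control (0 h) and for 3, 6 and 24 h with anti-CD3/CD28, antibodies to the T cell receptor complex and a costimulatory receptor, in RP10 medium, hence 24 libraries in 8 groups of 3. The study calls the Aim2-/- mice deficient in AIM2 and names no restriction to a tissue. The ages of the mice were not given. No cells were cultured for the same time without the antibodies, so that stimulation and time in culture cannot be told apart. The cells were mixed CD4+ T cells of all subsets, and in such bulk samples fewer cells of a type and less mRNA per cell cannot be told apart.

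Library totals lay between 19715161 and 21627018 counts. The floor used here, 3 counts, thus equalled 0.139 to 0.152 per 1e6 counts of the library. Levels are given as CPM, counts per 1e6 of a library total scaled by its TMM factor (trimmed mean of M values), unlike the floor. The floor covers counting error only. The summed level of 8 CD4 T cell markers was 3537 to 5297 CPM in all libraries and none of the 8 was at or under the floor, whereas Cd8a and Cd8b1 together reached 7.74 to 15.6 CPM. Aim2, the gene named in the genotype labels, was at 15.7 to 20.1 CPM in the unstimulated Aim2-/- libraries and at 74.9 and 67.4 CPM in WT mice 3 and 4. The mouse labelled WT 1 had 21.5 CPM. At 24 h it had 5.57 CPM, beside 34.0 and 38.6 CPM for the other WT mice and 5.28 to 7.15 CPM for the Aim2-/- mice. Counts per gene do not show which exons these reads came from. The Aim2 level of the mouse labelled WT 1 goes against its label, and comparisons of the genotypes are therefore given with and without it. Markers of several other cell types had higher sums in the Aim2-/- libraries, as given beside the comparison of the genotypes.

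Before stimulation, Ccr7 was the most abundant of the 9 receptor mRNAs. Levels of different genes were compared as CPM per kb of annotated exon. In WT cells at 0 h the mean level of Ccr7 was 881 ± 222 CPM per kb (SD, n = 3), followed by Cxcr4 with 271 ± 11.7. Cxcr6 (70.2 ± 24.0), Cxcr3 (65.7 ± 11.8) and Ccr8 (58.1 ± 14.8 CPM per kb) came next, and the libraries of each of these 3 overlapped with those of its neighbour in the order. Cxcr5 (14.7 ± 5.0) and Ccr4 (10.2 ± 3.65 CPM per kb) overlapped as well, and so did Ccr2 (3.76 ± 0.75) and Ccr6 (3.63 ± 1.18 CPM per kb), the least abundant pair. After 24 h the order in WT cells was Ccr7 (134 ± 16.3), Ccr8 (84.1 ± 3.81) and Ccr4 (64.8 ± 4.21 CPM per kb), with no overlap between these neighbours. The other 6 were at most at 18.9 CPM per kb in the WT libraries of 24 h, and Ccr2 was last with 0.239 ± 0.0821. In Aim2-/- cells the same 3 genes led at 24 h, with 139 ± 30.7, 107 ± 14.3 and 55.4 ± 9.52 CPM per kb, while Ccr7 and Ccr8 overlapped. At 3 and 6 h of Aim2-/- cells, Cxcr4 (193 and 177 CPM per kb) had a higher mean than Ccr7 (189 and 161), with overlapping libraries at both times.

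**Figure D1:**
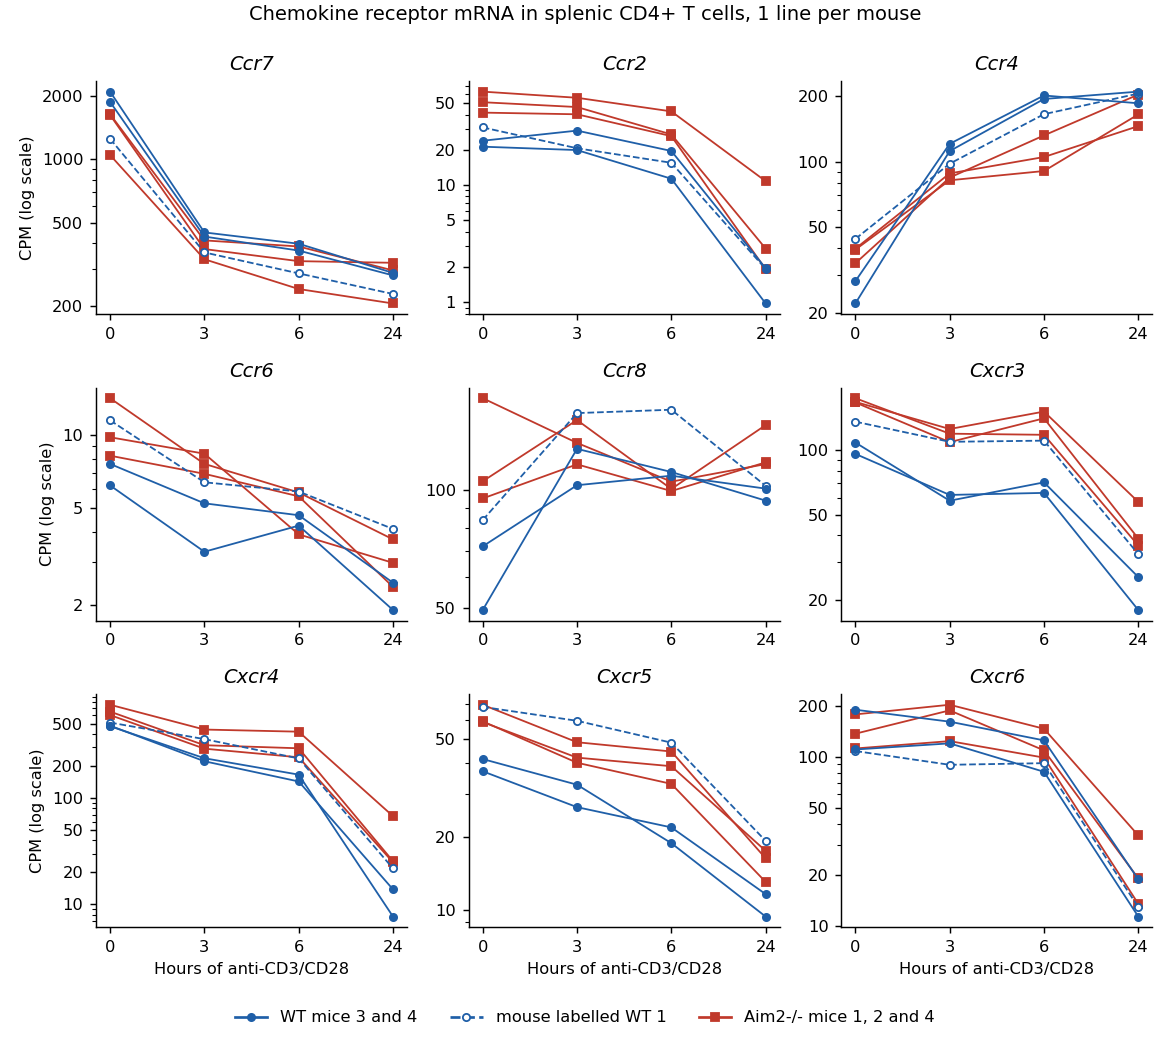
Level of each receptor mRNA in every library (CPM, log scale) against hours of anti-CD3/CD28 (0, 3, 6 and 24 h, evenly spaced), with 1 line per mouse: WT mice 3 and 4 in blue, the mouse labelled WT 1 as a dashed blue line with open points, and Aim2-/- mice in red. Ccr7 dropped within 3 h, Ccr4 climbed to 146 to 210 CPM, and Ccr2, Cxcr4 and Cxcr6 fell between 6 and 24 h.

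Stimulation changed 3 of the 9 receptors in WT cells within 3 h, 5 within 6 h and all 9 within 24 h (edgeR quasi-likelihood test, adjusted p under 0.05, called from here on). Of all genes tested, 32.6%, 51.1% and 71.4% were called in these comparisons. At 24 h Ccr4 and Ccr8 were higher and the other 7 lower, where 34.8% of all genes were called lower. In Aim2-/- cells 3, 4 and 8 receptors were called, against 30.7%, 51.2% and 70.3% of all genes, with Ccr4 higher and the same 7 lower at 24 h, a direction called for 33.5% of all genes. The median log2 fold change of the 9 at 24 h was -2.17 in WT and -2.0 in Aim2-/- cells, beside -0.01 and 0.03 for all genes. The comparisons with 0 h within a genotype share their 0 h libraries. Because each mouse gave cells at all times, a fit with mouse as a block was also made, and it called 7, 9 and 9 receptors in WT and 6, 7 and 8 in Aim2-/- cells at 3, 6 and 24 h.

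**Figure D2:**
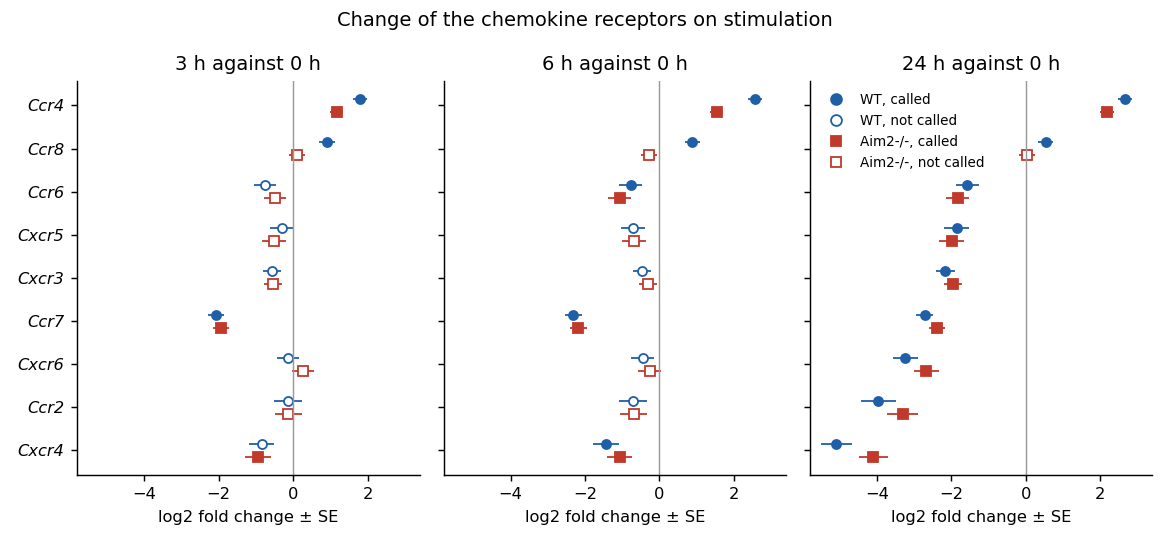
Log2 fold change ± SE of each receptor at 3, 6 and 24 h against 0 h in WT (blue circles) and Aim2-/- cells (red squares), from 3 libraries a group; filled symbols have an adjusted p under 0.05. Ccr4 lies to the right of 0 in all 6 comparisons and Ccr8 only in WT cells with a filled symbol, while Cxcr4 reaches -5.09 in WT cells at 24 h.

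Among the receptors of lymphoid tissue, Ccr7 fell earliest. Ccr7 binds Ccl19 and Ccl21 and brings naive T cells into the T cell zones of lymph nodes and spleen. Its gene (ENSMUSG00000037944) lies on the minus strand at chr11:99144196-99155077 of GRCm38. At 0 h it stood at 1253, 2099 and 1876 CPM in WT mice 1, 3 and 4 and at 1049, 1639 and 1625 CPM in Aim2-/- mice 1, 2 and 4. After 3 h it was at 361, 449 and 429 CPM in WT and 335, 412 and 374 CPM in Aim2-/- cells, and after 24 h at 229, 288 and 280 CPM and 206, 296 and 322 CPM. No stimulated library overlapped with an unstimulated one, and the 2 genotypes overlapped at each time. The fall at 3 h was 4.22-fold in WT (log2 -2.08, SE 0.22, adjusted p = 3.86e-07) and 3.85-fold in Aim2-/- cells (log2 -1.94, SE 0.22, adjusted p = 1.29e-06). At 24 h it was 6.56-fold (log2 -2.71, adjusted p = 6.81e-10) and 5.23-fold (log2 -2.39, adjusted p = 4.87e-09). Thus 76.6% of the log2 change of 24 h was present at 3 h in WT and 81.5% in Aim2-/- cells. From 3 to 6 h Ccr7 changed by log2 values that were called with mouse as a block, -0.25 in WT (adjusted p = 0.0444) and -0.26 in Aim2-/- cells (adjusted p = 0.0368), and from 6 to 24 h by -0.39 in WT with the block (adjusted p = 0.000939).

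Cxcr4, the receptor for Cxcl12, showed the deepest fall of the 9 genes in fold, and most of it on the log2 scale came after 6 h. The gene (ENSMUSG00000045382) lies on the minus strand at chr1:128588199-128592293. WT mice 1, 3 and 4 had 514, 475 and 480 CPM at 0 h. They had 359, 237 and 222 CPM after 3 h, 236, 166 and 143 CPM after 6 h and 21.7, 7.65 and 13.8 CPM after 24 h. Aim2-/- mice 1, 2 and 4 had 756, 652 and 605 CPM, 442, 315 and 292 CPM, 422, 294 and 242 CPM, and 67.5, 25.4 and 24.8 CPM at the same times. All 6 mice lost Cxcr4 mRNA, and at 24 h the lowest Aim2-/- library stood above the highest WT library. At 24 h the level was 34.0-fold lower in WT (log2 -5.09, SE 0.41, adjusted p = 4.02e-10) and 17.1-fold lower in Aim2-/- cells (log2 -4.09, SE 0.38, adjusted p = 5.58e-09). From 6 to 24 h alone it fell by 3.66 on the log2 scale in WT (adjusted p = 8.4e-08) and by 3.02 in Aim2-/- cells. Only 16.6% and 28.1% of the log2 change in WT cells had occurred by 3 and 6 h. The early step in WT cells had an adjusted p of 0.0624 at 3 h, and with mouse as a block it was called (log2 -0.89, adjusted p = 0.000471), as was the step from 3 to 6 h (log2 -0.58, adjusted p = 0.0171). In Aim2-/- cells the fall was called at 3 h (log2 -0.94, adjusted p = 0.0402) and 6 h (log2 -1.07, adjusted p = 0.0121). The call at 3 h was lost without the 0 h library of mouse 1 (log2 -0.87, adjusted p = 0.0931) or mouse 2 (-0.96, adjusted p = 0.0685) or the 3 h library of mouse 2 (-0.87, adjusted p = 0.109) or mouse 4 (-0.83, adjusted p = 0.14), and the call at 6 h without the 6 h library of mouse 4 (-0.91, adjusted p = 0.0634) or without mouse 2 (-1.04, adjusted p = 0.0595). The call at 3 h was also lost with scaling by library totals (-0.82, adjusted p = 0.0886) and with scores of B cell and monocyte markers as terms of the model (-0.59, adjusted p = 0.111).

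Cxcr5, which follows Cxcl13 into B cell follicles and marks follicular helper T cells, declined more evenly. The gene (ENSMUSG00000047880) spans chr9:44511787-44561877 on the minus strand and overlaps Bcl9l on the plus strand by 110 bp, which counts without regard to strand could not separate. WT mice 1, 3 and 4 had 67.9, 37.0 and 41.6 CPM at 0 h and 19.2, 11.7 and 9.44 CPM at 24 h. In the Aim2-/- mice the level went from 69.3, 58.9 and 59.2 CPM to 16.3, 17.5 and 13.1 CPM. The mouse labelled WT 1 had more Cxcr5 mRNA than the other 2 WT mice at every time. The fall at 24 h was 3.63-fold in WT (log2 -1.86, SE 0.34, adjusted p = 5.27e-05) and 3.99-fold in Aim2-/- cells (log2 -2.0, SE 0.34, adjusted p = 2.3e-05). Earlier steps were called with mouse as a block in WT cells at 3 h (log2 -0.34, adjusted p = 0.019) and 6 h (log2 -0.78, adjusted p = 4e-06), and in Aim2-/- cells at 3 h (log2 -0.52, adjusted p = 0.000678) and 6 h (log2 -0.69, adjusted p = 1.4e-05). The step from 3 to 6 h in WT cells was called with the block (log2 -0.44, adjusted p = 0.00391). From 6 to 24 h Cxcr5 fell in both genotypes, by 1.15 in WT and 1.31 in Aim2-/- cells on the log2 scale, and in WT cells this call was lost without the 6 h library of mouse 1 (log2 -0.60, adjusted p = 0.115).

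Ccr4 and Ccr8 were the receptors that rose. Ccr4 binds Ccl17 and Ccl22 and is found on Th2 cells, regulatory T cells and skin-homing memory cells, whereas Ccr8 binds Ccl1 and is known from Th2 cells and regulatory T cells of tissues. Both genes lie on chromosome 9, Ccr4 (ENSMUSG00000047898) on the minus strand at chr9:114490316-114504916 and Ccr8 (ENSMUSG00000042262) on the plus strand at chr9:120092114-120094906. The 250 bases before the RefSeq start of each (GRCm38.p6) are given here because these genes moved against the rest, with the window of Cxcr4, the gene with the deepest fall, for comparison. They cover chr9:114496545-114496794 (minus strand), chr9:120091883-120092132 (plus strand) and chr1:128592300-128592549 (minus strand). The Ccr4 window lies inside the span of the gene given above, since the RefSeq start used is downstream of the annotated 5' end at 114504916. Capitals mark the matches to motif letters described next.
Ccr4: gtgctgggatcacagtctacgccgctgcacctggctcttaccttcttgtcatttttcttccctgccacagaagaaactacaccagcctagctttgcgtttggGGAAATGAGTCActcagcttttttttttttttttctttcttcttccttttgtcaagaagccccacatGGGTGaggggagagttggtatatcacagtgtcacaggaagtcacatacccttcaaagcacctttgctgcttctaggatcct
Ccr8: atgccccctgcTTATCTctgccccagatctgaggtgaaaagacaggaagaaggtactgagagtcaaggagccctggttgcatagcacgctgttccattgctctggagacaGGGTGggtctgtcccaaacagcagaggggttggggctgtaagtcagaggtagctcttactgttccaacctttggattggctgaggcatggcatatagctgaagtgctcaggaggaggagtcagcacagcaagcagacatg
Cxcr4: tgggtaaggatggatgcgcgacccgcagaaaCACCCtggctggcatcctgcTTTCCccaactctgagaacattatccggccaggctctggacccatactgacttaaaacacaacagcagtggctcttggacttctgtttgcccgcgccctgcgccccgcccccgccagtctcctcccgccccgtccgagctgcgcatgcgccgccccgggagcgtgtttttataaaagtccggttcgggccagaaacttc

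Motif letters were searched on both strands of these windows. RefSeq windows were matched for 7 of the 9 receptors, 8 windows in all since Ccr6 has 2, and Ccr7 and Cxcr5 had none. The Ccr4 window holds the NFAT core GGAAA 148 to 144 bases before its RefSeq start and, directly beside it, the AP-1 letters TGANTCA 143 to 137 bases before that start. NFAT and AP-1 are the factors that T cell receptor and costimulatory signals activate together. The AP-1 letters were in 1 of the 8 receptor windows and in 6.75% of all 32851 mouse windows, and the NFAT core in 6 of 8 and in 55.6%. The letters CACCC, the core bound by KLF factors, stood in the windows of Ccr4, Ccr8 and Cxcr4 and in 52.0% of all windows. AGATAA, the GATA letters, stood in the windows of Ccr8 and Ccr2 and in 1 of Ccr6 (3 of 8, against 9.99% of all), and the NF-kB letters GGGANTTCC in 1 window of Ccr6 (1.43% of all). GTAAACA (FOXO, 3.17% of all) and AGGTGT (T-bet, 11.8% of all) were in no receptor window. These matches describe letters, and binding was not measured.

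Ccr4 rose in both genotypes and at all times. WT mice 1, 3 and 4 began at 44.0, 22.2 and 28.1 CPM and had 97.8, 112 and 121 CPM after 3 h, 165, 194 and 201 CPM after 6 h and 206, 210 and 185 CPM after 24 h. Aim2-/- mice 1, 2 and 4 began at 39.7, 34.0 and 39.3 CPM and had 88.2, 84.4 and 82.0 CPM, 105, 132 and 90.5 CPM, and 146, 203 and 165 CPM at these times. Every stimulated library was above every unstimulated one, and at 3 and 6 h all 3 WT libraries were above all 3 Aim2-/- libraries. In WT cells the rise was 3.50-fold at 3 h (log2 1.81, SE 0.18, adjusted p = 2.52e-07), 5.94-fold at 6 h (log2 2.57, SE 0.19, adjusted p = 6.87e-10) and 6.36-fold at 24 h (log2 2.67, SE 0.19, adjusted p = 5.99e-11). In Aim2-/- cells it was 2.25-fold (log2 1.17, SE 0.18, adjusted p = 5.21e-05), 2.90-fold (log2 1.53, SE 0.18, adjusted p = 6.53e-07) and 4.55-fold (log2 2.19, SE 0.19, adjusted p = 1.23e-09). WT cells had reached 96.3% of the log2 change of 24 h by 6 h, and Aim2-/- cells 70.2%. From 3 to 6 h Ccr4 was called in WT cells (log2 0.76, SE 0.18, adjusted p = 0.00304, 25.7% of all genes called), where the other 8 receptors were not called in the same fit, and in Aim2-/- cells the step from 6 to 24 h was called (log2 0.65, SE 0.18, adjusted p = 0.00396). The latter call was lost without Aim2-/- mouse 4 (log2 0.56, adjusted p = 0.0569) and with B cell and monocyte scores in the model (0.47, adjusted p = 0.0805).

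Ccr8 rose in WT cells and was already high in unstimulated Aim2-/- cells. At 0 h it stood at 83.7, 49.5 and 71.8 CPM in WT mice 1, 3 and 4 and at 170, 94.9 and 105 CPM in Aim2-/- mice 1, 2 and 4, without overlap. WT mice 1, 3 and 4 then had 156, 127 and 103 CPM at 3 h, 159, 111 and 108 CPM at 6 h, and 102, 93.7 and 101 CPM at 24 h. Aim2-/- mice 1, 2 and 4 had 131, 116 and 150 CPM, 105, 99.1 and 100.3 CPM, and 116, 117 and 146 CPM. The libraries of the genotypes overlapped at 3 h, whereas those of WT cells were all higher at 6 h and those of Aim2-/- cells all higher at 24 h. The rise in WT cells was 1.88-fold at 3 h (log2 0.91, SE 0.21, adjusted p = 0.00189), 1.85-fold at 6 h (log2 0.89, SE 0.21, adjusted p = 0.00126) and 1.45-fold at 24 h (log2 0.53, SE 0.21, adjusted p = 0.028). The call at 24 h was lost without the 0 h library of mouse 3 (log2 0.29, adjusted p = 0.228) or mouse 4 (0.52, adjusted p = 0.0592) or any 24 h library (0.51 to 0.52, adjusted p = 0.0583 to 0.0632). In Aim2-/- cells Ccr8 was not called at 3, 6 or 24 h (adjusted p = 0.762, 0.267 and 0.893), and the 95% interval of its log2 change at 24 h ran from -0.37 to 0.44.

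**Figure D3:**
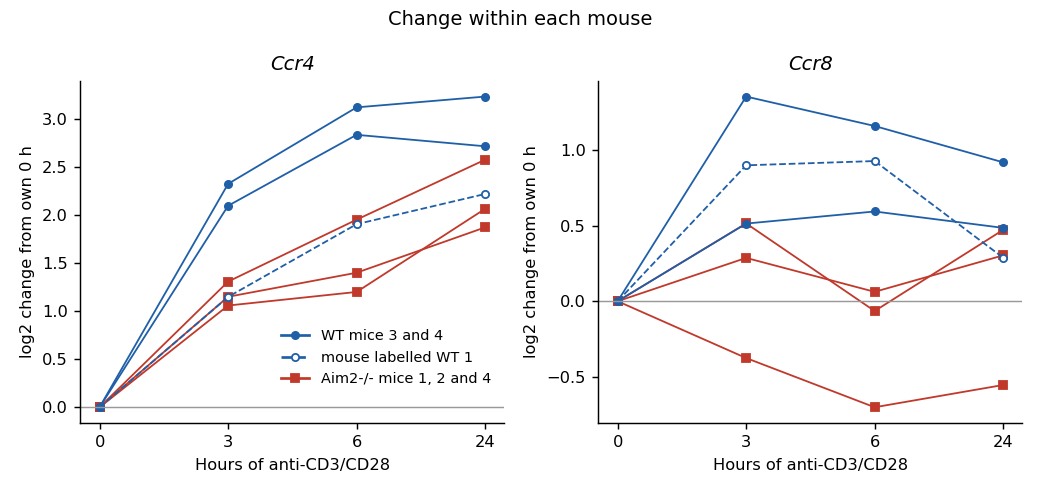
Log2 change of Ccr4 (left) and Ccr8 (right) from the 0 h library of the same mouse, against hours of anti-CD3/CD28 (evenly spaced), 1 line per mouse; blue is WT, dashed with open points the mouse labelled WT 1, red is Aim2-/-. For Ccr4, WT mice 3 and 4 lie above the other 4 mice, with the mouse labelled WT 1 among the Aim2-/- mice, and for Ccr8 the 3 WT mice lie above the 3 Aim2-/- mice at 6 h.

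Cxcr3, Cxcr6, Ccr2 and Ccr6, receptors of effector and memory cells, were lower at 24 h in both genotypes. Cxcr3 responds to Cxcl9, Cxcl10 and Cxcl11 and is typical of Th1 cells. Its gene (ENSMUSG00000050232) lies on the minus strand at chrX:101731535-101734269. In WT mice 1, 3 and 4 the level went from 136, 96.2 and 109 CPM to 110, 61.8 and 58.1 CPM after 3 h, 111, 63.2 and 70.8 CPM after 6 h and 32.7, 17.9 and 25.5 CPM after 24 h. In Aim2-/- mice 1, 2 and 4 it went from 169, 168 and 175 CPM to 126, 109 and 120 CPM, 152, 141 and 118 CPM, and 57.3, 38.6 and 35.8 CPM. All 6 mice thus had less Cxcr3 mRNA at 3 and 6 h than at 0 h and least at 24 h, and all but Aim2-/- mouse 4 had more at 6 h than at 3 h. The fall at 24 h was 4.49-fold in WT (log2 -2.17, SE 0.26, adjusted p = 1.63e-07) and 3.88-fold in Aim2-/- cells (adjusted p = 5.9e-07). With mouse as a block the early steps were called as well, in WT cells with log2 values of -0.61 at 3 h (adjusted p = 0.000252) and -0.51 at 6 h (adjusted p = 0.000877) and in Aim2-/- cells of -0.53 (adjusted p = 0.000911) and -0.32 (adjusted p = 0.0209).

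Cxcr6 and Ccr2 kept most of their mRNA through 6 h. Cxcr6, the receptor of Cxcl16, is known from tissue-resident and Th1-type cells, and Ccr2, the receptor of Ccl2, from monocytes and from effector and memory T cells. Cxcr6 (ENSMUSG00000048521) lies at chr9:123806475-123811760 on the plus strand, wholly within Fyco1 on the minus strand, and Ccr2 (ENSMUSG00000049103) at chr9:124101950-124113557 on the plus strand. The level of Cxcr6 is therefore uncertain where counting ignored strand.

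Cxcr6 stood at 108, 110 and 189 CPM at 0 h, 89.4, 120 and 161 CPM at 3 h and 91.4, 81.3 and 125 CPM at 6 h in WT mice 1, 3 and 4, and at 12.9, 11.4 and 18.8 CPM at 24 h. In Aim2-/- mice 1, 2 and 4 it stood at 177, 112 and 136 CPM, 202, 123 and 187 CPM, and 146, 98.6 and 109 CPM, and then at 34.2, 13.5 and 19.1 CPM. The libraries of 0, 3 and 6 h overlapped in each genotype, and those of 24 h lay apart. The fall at 24 h was 9.44-fold in WT (log2 -3.24, SE 0.34, adjusted p = 2.59e-08) and 6.36-fold in Aim2-/- cells (log2 -2.67, SE 0.33, adjusted p = 3.12e-07). By 6 h 14.0% of this log2 change was present in WT cells. With mouse as a block a change was called at 6 h in WT cells (log2 -0.42, adjusted p = 0.00464) and from 3 to 6 h in Aim2-/- cells (log2 -0.53, adjusted p = 0.00168).

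Ccr2 followed the same course at a lower level. WT mice 1, 3 and 4 began at 31.1, 21.3 and 23.9 CPM and had 20.6, 19.9 and 29.2 CPM after 3 h, 15.5, 11.3 and 19.6 CPM after 6 h and 1.92, 0.976 and 1.95 CPM after 24 h. Aim2-/- mice 1, 2 and 4 had 62.8, 41.6 and 51.0 CPM, 55.7, 40.2 and 46.4 CPM, 42.6, 26.2 and 27.1 CPM, and 10.8, 1.91 and 2.87 CPM. Up to 6 h every Aim2-/- library was above every WT library of its time, and at 24 h they overlapped. The fall at 24 h was 15.7-fold in WT (log2 -3.97, SE 0.47, adjusted p = 1.51e-07) and 9.93-fold in Aim2-/- cells (log2 -3.31, SE 0.42, adjusted p = 5.05e-07). At 6 h it was not called (adjusted p = 0.126 and 0.129), but it was with the block, at log2 -0.74 in WT (adjusted p = 0.00832) and -0.72 in Aim2-/- cells (adjusted p = 0.00697), and also with limma-voom, with no filter on low counts and with only the groups compared in the fit. With the block the step from 3 to 6 h was called as well (log2 -0.60 in each, adjusted p = 0.0443 and 0.0349). Of the monocyte and macrophage markers 6 of 10 were called lower in WT cells at 24 h, beside 34.8% of all genes, and their summed level went from 54.9 to 77.0 CPM at 0 h to 19.5 to 32.1 CPM at 24 h in WT libraries.

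Ccr6, the receptor of Ccl20 on Th17 cells and B cells, was the rarest of the group together with Ccr2. The gene (ENSMUSG00000040899) spans chr17:8236043-8257141 on the plus strand. WT mice 1, 3 and 4 began at 11.5, 6.20 and 7.60 CPM and had 6.38, 3.30 and 5.23 CPM after 3 h, 5.85, 4.23 and 4.67 CPM after 6 h and 4.10, 1.90 and 2.46 CPM after 24 h. Aim2-/- mice 1, 2 and 4 had 14.2, 8.22 and 9.79 CPM, 7.60, 6.92 and 8.37 CPM, 5.80, 5.59 and 3.90 CPM, and 3.71, 2.37 and 2.97 CPM. The fall at 24 h was 2.98-fold in WT (log2 -1.58, SE 0.31, adjusted p = 0.000114) and 3.55-fold in Aim2-/- cells (log2 -1.83, SE 0.31, adjusted p = 2.17e-05), and it was also called at 6 h, at log2 -0.78 (adjusted p = 0.0351) and -1.07 (adjusted p = 0.00489). At 3 h it was called with mouse as a block (log2 -0.76 in WT, adjusted p = 0.00169, and -0.46 in Aim2-/- cells, adjusted p = 0.0355), and so was the step from 3 to 6 h in Aim2-/- cells (log2 -0.59, adjusted p = 0.0136). The call at 6 h in WT cells was lost without the 0 h library of mouse 1 (log2 -0.52, adjusted p = 0.179) or the 6 h library of mouse 3 (-0.68, adjusted p = 0.118) or mouse 4 (-0.74, adjusted p = 0.0908), and in Aim2-/- cells without mouse 4 (-0.97, adjusted p = 0.0568). Scaling by library totals also ended the WT call at 6 h (-0.69, adjusted p = 0.0751).

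Markers of some other cells were lower and those of others higher after the same 24 h. The summed B cell markers went from 11.1 to 15.9 CPM at 0 h to 4.62 to 7.29 CPM at 24 h in WT libraries and from 18.0 to 50.9 to 7.79 to 35.6 CPM in Aim2-/- libraries, and 3 of 8 tested B cell markers were called lower in each genotype, a share close to the 34.8% and 33.5% of all genes called lower, while 1 was called higher in Aim2-/- cells. Of 7 basophil and mast cell markers 2 were called higher in WT and 4 in Aim2-/- cells and none lower. Of all genes, 71.4% in WT and 70.3% in Aim2-/- cells were called in either direction. The summed dendritic cell markers went from a median of 18.0 CPM at 0 h to 56.1 CPM at 24 h in WT libraries. Within this list the median count of Ccl22 went from 4 to 1015. Of 7 tested dendritic cell markers 1 was called higher and 2 lower in WT cells. B cells carry Ccr6 and Cxcr5, and monocytes Ccr2. With scores of the B cell markers and of the monocyte and macrophage markers as terms of the model, the fall of Ccr6 at 24 h was not called (log2 -0.65 in WT, adjusted p = 0.218, and -0.83 in Aim2-/- cells, adjusted p = 0.136). Its fall at 6 h was not called either (-0.48, adjusted p = 0.173, and -0.57, adjusted p = 0.151). The other falls at 24 h kept their calls with smaller values, in WT cells -4.13 for Cxcr4, -2.63 for Ccr2, -2.14 for Cxcr6, -1.35 for Cxcr3 and -1.33 for Cxcr5 (adjusted p = 0.0437). Cxcr5 from 6 to 24 h was then not called in WT cells (log2 -0.77, adjusted p = 0.156) or Aim2-/- cells (-0.98, adjusted p = 0.0545). The sums of both marker lists also changed with time in the same libraries, so this fit cannot fully tell marker level and time apart. The share of each receptor mRNA that came from other cells was not measured.

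Between 6 and 24 h, 6 receptors fell in WT and the same 6 in Aim2-/- cells: Ccr2, Ccr6, Cxcr3, Cxcr4, Cxcr5 and Cxcr6. Ccr4 was called higher besides in Aim2-/- cells, which makes 7. Of all genes, 57.6% were called in WT and 54.3% in Aim2-/- cells in this interval, and 28% and 27% of all genes were called lower. The log2 changes in WT cells were -3.66 for Cxcr4, -3.25 for Ccr2, -2.79 for Cxcr6, -1.69 for Cxcr3, -1.15 for Cxcr5 and -0.80 for Ccr6. The Aim2-/- values were -3.02, -2.61, -2.40, -1.64, -1.31 and -0.75. The Ccr6 values passed narrowly (adjusted p = 0.032 and 0.0435). They were lost in WT cells without the 6 h library of mouse 1 or the 24 h library of mouse 3 or 4 (log2 -0.61 to -0.71, adjusted p = 0.0997 to 0.135), and in Aim2-/- cells without the 6 h library of mouse 1 or 2 or the 24 h library of mouse 2 or 4 (-0.61 to -0.74, adjusted p = 0.0956 to 0.155). With B cell and monocyte scores in the model they were -0.17 in WT (adjusted p = 0.719) and -0.25 in Aim2-/- cells (adjusted p = 0.548), and the Aim2-/- call was also lost with limma-voom (adjusted p = 0.0652) and with only the groups compared (adjusted p = 0.0555). Between 3 and 6 h no receptor was called in Aim2-/- cells with edgeR, where 23.3% of all genes were. None had an unadjusted p under 0.05 there, and DESeq2 and limma-voom also called none, but 4 were called with mouse as a block and 2 with no filter on low counts. In all 6 mice each of the 7 falling receptors was lower at 24 h than at 0 h, and Ccr4 was higher at each of 3, 6 and 24 h.

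The composition of the receptor mRNA shifted as its total declined. Summed over the 9 genes, WT cells had 1378 ± 183 CPM per kb before stimulation (SD, n = 3) and 630 ± 42.6, 557 ± 32.9 and 319 ± 4.58 CPM per kb after 3, 6 and 24 h. Aim2-/- cells had 1418 ± 74.9, 702 ± 51.0, 618 ± 56.7 and 367 ± 21.9 CPM per kb. Ccr7 made up 63.2% ± 8.29 of the WT sum at 0 h and 42.1% ± 4.73 at 24 h. The share of Ccr4 went from 0.773% to 20.3% ± 1.56 and that of Ccr8 from 4.36% to 26.4%, whereas Cxcr4 went from between 17.5% and 24.3% to a mean of 2.50%. The Aim2-/- shares at 0 and 24 h were 50.9% and 37.6% for Ccr7, 0.862% and 15.1% for Ccr4, 7.51% and 29.2% for Ccr8 and 26.3% and 6.05% for Cxcr4. At 24 h, Ccr4 and Ccr8 together with Ccr7 thus held most of the receptor mRNA in both genotypes. Shares add to a fixed total, so the share of a gene also moves with the others.

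**Figure D4:**
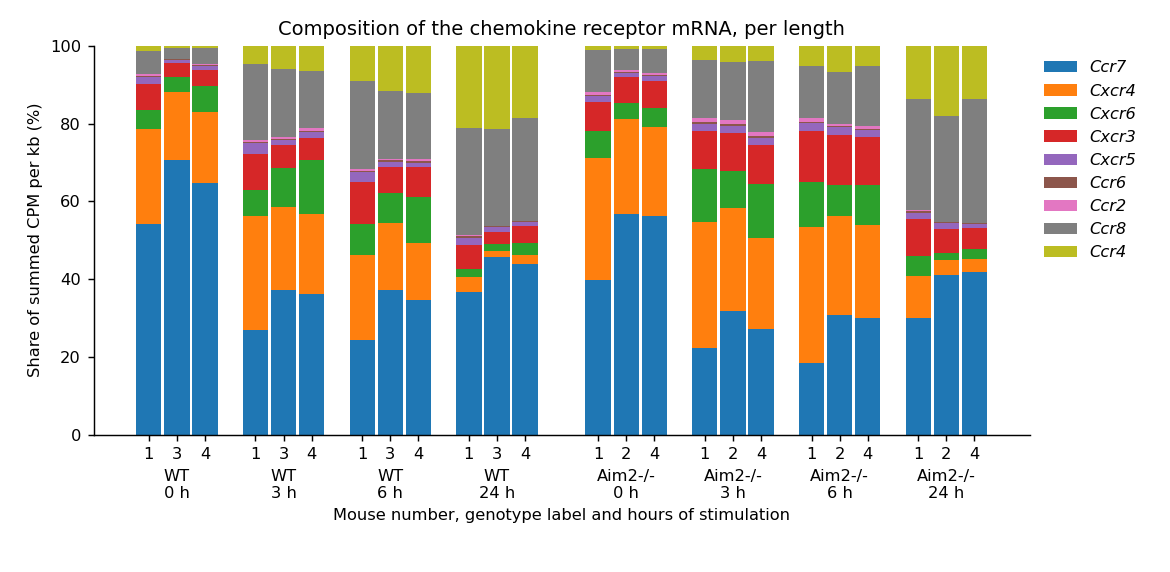
Share (%) of each receptor in the summed CPM per kb of the 9 genes, 1 stacked bar per library, grouped by genotype label and hours of stimulation. Ccr7 takes 54.3% to 70.6% of each WT bar at 0 h, and at 24 h Ccr8 and Ccr4 fill the upper part of each bar while Cxcr4 is reduced.

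Unstimulated Aim2-/- cells had more Ccr8 mRNA than WT cells, and at 6 h they had less Ccr4 and more Cxcr3 mRNA. At 0 h Ccr8 was 1.81-fold higher (log2 0.85, SE 0.21, adjusted p = 0.0277), the only receptor called, where 5.23% of all genes were. At 6 h Ccr4 was 1.71-fold lower (log2 -0.78, SE 0.18, adjusted p = 0.0119) and Cxcr3 1.68-fold higher (log2 0.75, SE 0.24, adjusted p = 0.0434), against 15.8% of all genes called. No receptor was called at 3 h (0.294% of all genes) or 24 h (0.666%) with edgeR. In each of these 2 comparisons 3 receptors had an unadjusted p under 0.05, DESeq2 called 0 and 3, and limma-voom none. With the 4 libraries of each mouse summed, again none was called with edgeR (0.0117% of 17163 genes), 4 had an unadjusted p under 0.05, DESeq2 called 4 and limma-voom none. The means of Ccr2 were at least 2.04-fold higher in Aim2-/- cells at each time (log2 1.03, 1.03, 1.05 and 1.69), with adjusted p values of 0.106, 0.217, 0.0642 and 0.0862. Without the 24 h library of Aim2-/- mouse 1 (10.8 CPM) the difference at 24 h was 0.56 (adjusted p = 0.757). Ccr7 differed at 0 h by a log2 value of -0.28 (adjusted p = 0.438).

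The 3 calls were sensitive to single mice and to the label of the mouse WT 1. Without that mouse, 4, 1, 3 and 2 receptors were called at 0, 3, 6 and 24 h. Ccr8 at 0 h then had a log2 difference of 1.03 (adjusted p = 0.0109), and Ccr4 (0.58, adjusted p = 0.0417), Cxcr3 (0.74, adjusted p = 0.0213) and Cxcr5 (0.67, adjusted p = 0.0217) were called higher besides. Cxcr3 was then higher at all times, with log2 differences of 0.98 at 3 h (adjusted p = 0.0076), 1.03 at 6 h (adjusted p = 0.00396) and 1.02 at 24 h (adjusted p = 0.0141). The other calls without this mouse were Ccr4 (log2 -0.86, adjusted p = 0.00411) and Cxcr5 (0.93, adjusted p = 0.00441) at 6 h and Cxcr4 (1.87, adjusted p = 0.0322) at 24 h. With all mice kept but only the groups compared in the edgeR fit, 2 of the 3 calls were lost. These were Ccr8 at 0 h (log2 0.87, adjusted p = 0.0925) and Cxcr3 at 6 h (0.73, adjusted p = 0.0639). With all mice kept, the Ccr8 call at 0 h was lost without the 0 h library of Aim2-/- mouse 1 (log2 0.52, adjusted p = 0.247), of WT mouse 3 (0.63, adjusted p = 0.139) or of WT mouse 4 (0.86, adjusted p = 0.0762). The Ccr4 call at 6 h was lost without the 6 h library of Aim2-/- mouse 1 (log2 -0.75, adjusted p = 0.0771), of WT mouse 4 altogether (-0.76, adjusted p = 0.0623) or of Aim2-/- mouse 4 altogether (-0.66, adjusted p = 0.0751), and the Cxcr3 call at 6 h without any single 6 h library other than that of the mouse labelled WT 1 (0.59 to 0.84, adjusted p = 0.061 to 0.176).

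**Figure D5:**
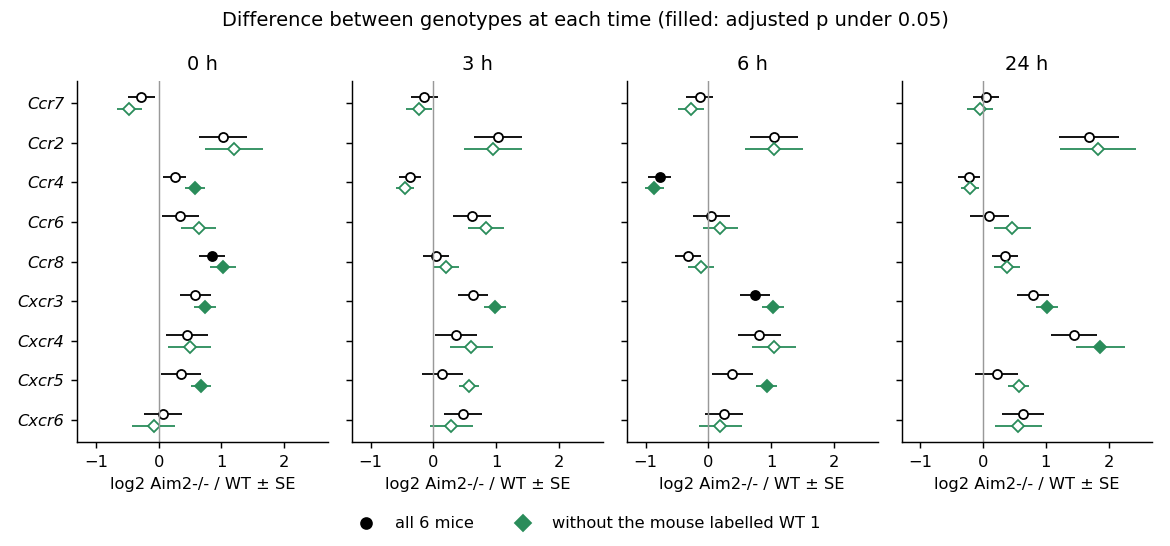
Log2 difference ± SE of Aim2-/- against WT cells for each receptor at 0, 3, 6 and 24 h, from all 6 mice (black circles) and without the mouse labelled WT 1 (green diamonds); filled symbols have an adjusted p under 0.05. With all mice Ccr8 at 0 h and Ccr4 and Cxcr3 at 6 h are filled, and without the mouse labelled WT 1 Cxcr3 is filled at all 4 times.

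Markers of other cells differed between the genotypes in the same libraries. At 0 h the summed monocyte and macrophage markers were at 54.9 to 77.0 CPM in WT and 141 to 402 CPM in Aim2-/- libraries, and B cell markers at 11.1 to 15.9 and 18.0 to 50.9 CPM. NK cell markers were at 43.5 to 59.1 and 115 to 130 CPM, basophil and mast cell markers at 18.3 to 19.1 and 70.0 to 146 CPM, and neutrophil markers at 25.1 to 27.1 and 103 to 269 CPM. Of these lists 3 of 10, 2 of 8, 1 of 6, 6 of 7 and 2 of 6 tested genes were called higher in Aim2-/- cells, and none of the 8 CD4 T cell markers. Of all genes, 5.23% at 0 h and 15.8% at 6 h were called in either direction. Plasma cell markers summed to 270 to 370 CPM in WT and 637 to 1040 CPM in Aim2-/- libraries at 0 h, with 2 of 5 called higher at 0 h and 4 of 5 at 6 h, and erythroid markers to 6.89 to 61.8 and 18.1 to 286 CPM with 0 of 5 called. Aim2-/- mouse 1, which had the highest Ccr8 level at 0 h, also had the highest 0 h sums of all these lists but the NK cell list, for example 50.9 CPM of B cell markers against 18.0 and 20.2 CPM and 269 CPM of neutrophil markers against 103 and 131 CPM in Aim2-/- mice 2 and 4. Several defining genes were near 0, with Ly6g at or under 3 counts in 22 libraries, Ebf1 in 19 and Ms4a1 in 10. Single genes made up much of some sums. In the NK cell list the median count of Eomes at 0 h was 551 in WT and 1911 in Aim2-/- libraries. Those of Klrb1c (217 and 234), Gzma (154 and 224) and Klre1 (74 and 135) differed less. In the neutrophil list the median count of Mpo was 416 and 2251. At 6 h the monocyte and macrophage sum was 36.6 to 62.2 in WT and 99.1 to 240 CPM in Aim2-/- libraries. With scores of the B cell markers and of the monocyte and macrophage markers as terms of the model, Ccr8 at 0 h (log2 0.52, adjusted p = 0.368), Ccr4 at 6 h (-0.66, adjusted p = 0.107) and Cxcr3 at 6 h (0.46, adjusted p = 0.328) were not called. The sums of both lists did not overlap between the genotypes at 0 h, so this fit cannot fully tell marker level and genotype apart. The part of cells of any marker list in these differences was not tested.

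The difference between the responses of the genotypes was tested itself as an interaction. With edgeR no receptor was called at 3, 6 or 24 h, where 0%, 0.0261% and 0% of all genes were. At these times 2, 2 and 0 receptors had an unadjusted p under 0.05, DESeq2 called 0, 2 and 0, and limma-voom none. At 6 h the interaction of Ccr4 was -1.04 on the log2 scale (SE 0.25, adjusted p = 0.083) and that of Ccr8 -1.17 (SE 0.29, adjusted p = 0.0873). Fitted Ccr4 rose in both genotypes and by less in Aim2-/- cells, whereas fitted Ccr8 rose in WT cells and had a log2 value of -0.28 in Aim2-/- cells (adjusted p = 0.267). With mouse as a block both were called, Ccr4 at -1.06 (SE 0.24, adjusted p = 0.0186) and Ccr8 at -1.15 (SE 0.22, adjusted p = 0.0112). Within mice, Ccr4 at 6 h was above its own 0 h level by 1.91, 3.12 and 2.84 on the log2 scale in WT mice 1, 3 and 4 and by 1.40, 1.95 and 1.20 in Aim2-/- mice 1, 2 and 4. The mouse labelled WT 1 lay within the range of the Aim2-/- mice at each time. Ccr8 at 6 h differed from its 0 h level by 0.93, 1.16 and 0.59 in the WT mice and by -0.70, 0.06 and -0.06 in the Aim2-/- mice, without overlap. These changes start from 0 h levels that were higher in Aim2-/- cells (log2 0.85), and at 6 h Ccr8 was not called between the genotypes. Without the mouse labelled WT 1 and with the block, the values at 6 h were -1.46 for Ccr4 (adjusted p = 0.00206) and -1.13 for Ccr8 (adjusted p = 0.0244), and Ccr4 was called at 3 h (-1.04, adjusted p = 0.038) and at 24 h (-0.81, adjusted p = 0.0295), the last together with Cxcr4 (1.26, adjusted p = 0.0288).

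Most of the remaining chemokine receptors that could be tested were lower at 24 h too. Of 16 further receptor genes 11 were tested, and in WT cells none was called higher while 1, 3 and 8 were called lower at 3, 6 and 24 h; in Aim2-/- cells 1, 1 and 8 were lower and 1 was higher, at 6 h. Of all genes 32.6% and 51.1% were called in either direction at 3 and 6 h and 34.8% were called lower at 24 h in WT cells. In Aim2-/- cells these shares were 30.7%, 51.2% and 33.5%. Ccrl2, an atypical receptor, went from a mean of 11.3 to 0.783 CPM in WT cells at 24 h (log2 -3.84, SE 0.35, adjusted p = 2.66e-09), and Ccr9, the receptor of small intestinal homing, from 5.33 to 0.460 CPM (log2 -3.52, SE 0.48, adjusted p = 1.14e-06). Cxcr1 was at or under 3 counts in all WT libraries of 24 h and at least 8.58-fold lower than at 0 h. So were Ccr3, Xcr1 and Ccr10, at least 6.55-fold, 5.77-fold and 2.23-fold lower. Xcr1 is also in the list of dendritic cell markers. Which cells these traces came from was not tested.

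Ligands of the receptors were made in the same cultures. Of 16 ligand genes 8 were tested, and 5, 6 and 4 were called higher in WT and 6, 5 and 5 in Aim2-/- cells at 3, 6 and 24 h. Of all genes, 32.6%, 51.1% and 71.4% in WT and 30.7%, 51.2% and 70.3% in Aim2-/- cells were called in either direction. Ccl1, the ligand of Ccr8, went from a mean of 0.254 CPM at 0 h to 116 CPM at 6 h and 133 ± 53.2 CPM at 24 h in WT cells (adjusted p = 2.12e-08), and from 0.357 to 354 ± 274 CPM in Aim2-/- cells. Ccl22, a ligand of Ccr4 that dendritic cells also make, went from 0.203 to 47.7 ± 16.9 CPM at 24 h in WT cells (log2 7.84, SE 1.06, adjusted p = 1.05e-06). Ccl17, the other ligand of Ccr4, was at or under 3 counts in all 0 h libraries and reached 4.38 CPM in WT and 12.9 CPM in Aim2-/- cells at 24 h, at least 28.6-fold and 91.7-fold higher. In WT cells the rise of Ccr4 and Ccr8 thus came with more mRNA of these ligands. In Aim2-/- cells the mean of Ccl1 rose as well, while Ccr8 was not called against 0 h at any time. Cxcl10, a ligand of Cxcr3, was higher at 3 h (log2 2.38) and called lower at 24 h in WT cells, with 10.1 to 20.4 CPM at 0 h and means of 78.4, 63.1 and 4.70 CPM at the later times (log2 -1.67 at 24 h, SE 0.42, adjusted p = 0.0014). It was the only ligand called lower against 0 h, and between 6 and 24 h it was called lower in both genotypes and Cxcl11, another ligand of Cxcr3, in Aim2-/- cells (log2 -2.16, adjusted p = 0.0204).

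Among genes of receptor signalling and of homing, more were called lower than higher at 24 h, where 71.4% of all genes were called in WT cells and 34.8% called lower. In Aim2-/- cells 70.3% of all genes were called and 33.5% called lower. Of 27 genes of signalling and desensitization, 5 were higher and 15 lower in WT cells at 24 h, with a median log2 fold change of -0.44, and 4 and 13 in Aim2-/- cells. Rgs16 (log2 1.26, adjusted p = 0.0016), an inhibitor of G protein signalling, Elmo1 (0.74) and Rac2 (0.59), which drive the cytoskeleton, rose most among those called in WT cells. Rgs2 (log2 -4.25, adjusted p = 2.32e-14), Arrb1 (-2.26), an arrestin that uncouples receptors, and Pik3r5 (-2.01), a subunit of the phosphoinositide kinase downstream of these receptors, fell most. Arrb2, the other arrestin, fell by 0.44 on the log2 scale in WT cells at 24 h (adjusted p = 2.8e-05), with means of 186 CPM at 0 h and 138 CPM at 24 h, and was not called in Aim2-/- cells (log2 0.05, adjusted p = 0.566). Of 16 tested genes of homing and egress, 1 was higher and 12 lower in WT and 0 and 13 in Aim2-/- cells at 24 h, with a WT median of -1.87. S1pr1, the sphingosine phosphate receptor that lets T cells leave lymphoid organs, went from 1459 ± 159 to 42.5 ± 10.3 CPM (log2 -5.10, SE 0.22, adjusted p = 6.79e-14). Klf2, a transcription factor of resting T cells that drives S1pr1, fell by 4.14 on the log2 scale, P2ry10, a lysophospholipid receptor, fell by 3.36, and Ptger4, a prostaglandin receptor, rose by 0.43 (adjusted p = 0.000269).

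Transcription factors of the helper lineages that go with these receptors moved in both directions. Of 12 tested, 4 were higher and 7 lower at 24 h in each genotype, beside 71.4% of all genes called in WT and 70.3% in Aim2-/- cells, with a median log2 fold change of -1.06 in WT cells. Tbx21 (T-bet), the Th1 factor, rose by 3.47 on the log2 scale (SE 0.23, adjusted p = 2.58e-11) in WT cells, from 21.4 to 237 CPM, while Cxcr3, a receptor of Th1 cells, fell. Irf4 rose by 2.12 (adjusted p = 8.21e-09) and Batf by 1.37 (adjusted p = 4.7e-09), both induced by T cell receptor signals. Bcl6, the factor of follicular helper cells that goes with Cxcr5, fell by 3.25 (adjusted p = 1.46e-12), Maf fell by 2.62, and Rora, a factor of Th17 cells that goes with Ccr6, fell by 5.05 (adjusted p = 1.03e-11).

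Likeness of pattern was described by Pearson's r of log2 CPM over the 24 libraries, which share mice and the strong common change with time. Ccr2 and Cxcr6, and Ccr2 and Cxcr4, were most alike among the receptors (r = 0.961 for each), and Cxcr3 and Cxcr4 followed (0.952). Ccr7 and Ccr4 ran opposite (r = -0.908). Ccr8 stood apart, with r between -0.0433 and 0.0651 to the 6 receptors called lower between 6 and 24 h. Among 9591 genes with a mean of at least 5 CPM, the closest to Ccr7 were Bambi-ps1 (0.977) and Mepce (0.976), and to Ccr4 Pros1 (0.966) and Hsph1 (0.962). Ccr2 was closest to Il18rap (0.985) and B3gnt5 (0.978), Cxcr6 to Calca (0.985) and Il18r1 (0.972), and Cxcr4 to Nt5e and Itm2c (0.987 each). Cxcr3 was closest to Aplp1 (0.976) and Maf (0.975), Cxcr5 to Dnase1l3 (0.964) and Tbc1d4 (0.959), and Ccr6 to Myo1e (0.946) and Fam43a (0.941). For Ccr8 the closest genes, Myo1c (0.814) and Pex11a (0.768), were less alike than for any other receptor.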

How the data were processed

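Per the labels, RNA of the CD4+ T cells was prepared with RNeasy columns and stranded mRNA libraries with the TruSeq kit. The study's methods describe isolation by negative immunomagnetic selection, without naming this time course. The authors aligned reads with STAR to GRCm38 and deposited raw counts per gene, without normalization; whether strand was used in counting is not given in the sources used here. The submitters' processing notes also name DESeq2 and edgeR. The receptors and all gene lists were chosen with earlier results of these data known.

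Libraries were grouped by the labels. Identifiers were matched to GENCODE symbols of the same build (54409 of 54446). CPM values printed are counts per 1e6 of the library total multiplied by its TMM factor. CPM per kb divides them by the length of all annotated exons. The floor, and folds given as at least a value, use totals without this factor. edgeR 4.0.16 (R 4.3.3) was run over the 24 libraries, each group with a mean of its own, after TMM scaling and filterByExpr (minimum count 10). The quasi-likelihood F test was two-sided, with Benjamini-Hochberg adjustment over all tested genes of a comparison and a threshold of 0.05. The biological coefficient of variation was 18.6%. Intervals are 95% normal intervals of the fitted value. DESeq2 1.42.0 and limma 3.58.1 (voom) were alternatives, beside other scalings and filters, blocks, marker scores and the removal of each library or mouse. The script was tested on simulated data.

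Libraries of a mouse are paired by their labels. Deviations from the group means correlated with r of 0.139 to 0.567 in the 36 pairs of libraries from 1 mouse and -0.432 to 0.0742 in 72 pairs from other mice of the genotype. The study's methods name no block, so the block is an alternative, given where it changes a call. All 9 receptors are named throughout, and of each list up to 3 rises and 3 falls in WT cells at 24 h, the largest among called genes with at least 1 CPM in the higher group, and Arrb2. For likeness the 2 genes with the highest r are named. Promoter windows came from RefSeq (GRCm38.p6).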

Additional observations from a re-analysis of the deposited data

Results flagged for a closer look

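Groups of 3 libraries are too small for a search for outlying libraries, and none was made. The interaction of genotype and stimulation at 6 h differed from 0 for 2 receptors with mouse as a block. For Ccr4, which rose in both genotypes, the log2 change from 0 h in Aim2-/- cells differed from that in WT cells by -1.06 (SE 0.24, adjusted p = 0.0186). For Ccr8, which rose in WT cells and was not called in Aim2-/- cells, the difference was -1.15 (SE 0.22, adjusted p = 0.0112). Without the block the adjusted p values of the edgeR fit were 0.083 for Ccr4 and 0.0873 for Ccr8. The Ccr8 value includes the genotype difference at 0 h (log2 0.85, edgeR adjusted p = 0.0277). That call was lost without the 0 h library of Aim2-/- mouse 1 (0.52, adjusted p = 0.247). At 6 h Ccr8 was not called between the genotypes. With marker scores in the model Ccr4 was the only receptor called in the interaction at 6 h.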

How the results depend on the processing

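Pairs of a receptor and a comparison were counted here only if called in the edgeR fit or in another fit that kept all libraries. Pairs called in no such fit, and their alternative values, were left out, so the counts below are not rates over all pairs. Of the 92 pairs kept, 49 were called, 34 of them under all alternatives and 37 under all removals of a library or mouse. Of 1729 alternative values 1506 kept direction and side of the threshold, 76 lost and 143 gained a call, and 4 turned direction, none of them called: with marker scores Ccr8 in WT cells from 6 to 24 h (0.059), Cxcr3 in Aim2-/- cells at 6 h (0.0896) and Ccr7 between genotypes at 0 h (0.17), and without the 3 h library of the mouse labelled WT 1 Cxcr5 in WT cells from 3 to 6 h (0.0137; -0.96 without its 6 h library). The causes were not tested.

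Counts of receptors called that moved by over 1.5 times were as follows. DESeq2 called 5 at 3 h in WT cells, 3 between genotypes at 24 h, 2 in the interaction at 6 h and 4 with the libraries of a mouse summed. limma-voom called 6 at 3 h in WT cells and 2 between genotypes at 0 h. With no filter on low counts, WT cells had 5 at 3 h, 8 at 6 h and 2 from 3 to 6 h, Aim2-/- cells 2 from 3 to 6 h, the genotypes 3, 2, 4 and 3 at 0, 3, 6 and 24 h, the interaction at 6 h 2 and the sums 3. With only the groups compared, Aim2-/- cells had 5 at 3 h and 7 at 6 h. With marker scores, the genotypes had 0 at 0 h and 0 at 6 h, and the interaction at 6 h 1 (Ccr4, log2 -1.10, adjusted p = 0.0395).

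With mouse as a replicate block, WT cells had 7 at 3 h, 9 at 6 h and 5 from 3 to 6 h, Aim2-/- cells 6, 7 and 4, and the interaction at 6 h 2; no call was lost. With this block and without the mouse labelled WT 1, a setting chosen after seeing the data, WT cells had 7 at 3 h, 8 at 6 h and 3 from 3 to 6 h, and the interactions 1, 2 and 2 at 3, 6 and 24 h. Mice of the 2 genotypes share only a number (r of -0.165 to 0.3 in 32 pairs); with mouse number as a replicate block the genotypes had 4, 2, 4 and 3.

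Leaving out each library or mouse gave 3 to 6, 4 to 7 and 8 to 9 receptors at 3, 6 and 24 h in WT cells, 1 to 2 from 3 to 6 h and 4 to 6 from 6 to 24 h. Aim2-/- cells had 2 to 3, 2 to 5 and 8, then 0 and 5 to 7. The genotypes had 0 to 4, 0 to 1, 0 to 3 and 0 to 3 at 0, 3, 6 and 24 h, the interactions 0, 0 to 1 and 0, and the sums 0 to 2. Besides those given above for the mouse labelled WT 1, counts rose or fell by over 1.5 times, for example, without the 3 h library of WT mouse 1 (6 in WT cells at 3 h), its 6 h library (2 from 3 to 6 h), Aim2-/- mouse 4 (2 at 6 h), the 24 h libraries of Aim2-/- mice 2 (3 between genotypes) and 4 (1), and Aim2-/- mouse 2 (2 at 0 h and 2 at 24 h).

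With scaling by library totals the median log2 fold change of all genes at 3 and 6 h was 0.122 and 0.108 in WT and 0.133 and 0.198 in Aim2-/- cells, beside 0.02 and 0.02 in WT and 0.02 and 0.08 in Aim2-/- cells with TMM. It turned the direction of no called receptor and ended the calls of Ccr6 in WT cells at 6 h and Cxcr4 in Aim2-/- cells at 3 h. Each group holds 3 mice, the label of 1 mouse is in doubt, and no cells were cultured without antibodies. The lowest receptor count was 19, for Ccr2 in WT cells at 24 h, whose fold change against 0 h had an SE of 0.47.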
